A study of Mus musculus with 6 samples.

Results

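The genes described here are the insulin-like growth factor (IGF) ligands *Igf1* and *Igf2*, the receptors *Igf1r* and *Igf2r*, and the binding proteins *Igfbp2* to *Igfbp7*. They were chosen by gene symbol, with no threshold on their levels. All 10 were found among the 24421 rows of the expression matrix, and 8 of them passed the filter on low values used for testing, a level of 1 TPM or more in 3 or more libraries (TPM, transcripts scaled to a common total per library). *Igf2* and *Igfbp2* did not pass and are described by their values only.

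The matrix held 6 bulk RNA sequencing libraries of GFP+ cells sorted from the root and the ascending segment of the aorta in mice of strain 129S6/SvEv at 8 weeks of age. In 3 libraries the cells were traced by the Mef2cSHF Cre allele, which marks descendants of the secondary heart field (SHF), and in 3 by the Wnt1-Cre2 allele, which marks descendants of the cardiac neural crest (CNC). All animals carried the conditional CAG-Sun1/sfGFP tracer, the headers of the matrix mark all 6 libraries as WT, no treatment is named in the labels, and the tracer marks any cell type that descends from a Cre-expressing cell. The study describes the replicates as biological, and whether each library came from a single animal or from pooled animals is not given in the sources used here.

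IGF1 and IGF2 are secreted growth factors that signal through the IGF1 receptor, a tyrosine kinase that feeds the PI3K and AKT pathway and promotes growth and survival of smooth muscle and other mesenchymal cells. The IGF2 receptor, also called the cation-independent mannose 6-phosphate receptor, takes up IGF2 for degradation and sorts lysosomal enzymes. Most ligand outside cells is held by IGF binding proteins, which limit or prolong its action and are in turn cut by proteases, among them PAPP-A for IGFBP4 and HTRA1 for IGFBP5.

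The libraries listed between 9255 and 11858 genes above 0. TPM values carry no read totals, so depth is unknown and no counting interval is given. The cells were checked against marker lists of 10 genes each. All 10 fibroblast markers were above 0 in every library, and their summed level was 10.2 to 40.3 times that of the 10 smooth muscle markers. The fibroblast sum ran from 29221.1 to 32483.8 TPM in the SHF libraries and from 40268.6 to 54797.7 TPM in the CNC libraries, without overlap. Its markers were *Dcn*, *Lum*, *Pdgfra*, *Col1a1*, *Col1a2*, *Col3a1*, *Pi16*, *Clec3b*, *Serpinf1* and *Dpt*. Taken singly, 6 of the 10 were higher in every CNC library and 0 in every SHF library. The endothelial sum ran the other way, from 89.5 to 591.0 TPM in SHF and from 37.6 to 61.0 TPM in CNC. Of the 10 endothelial markers, 4 were higher in every SHF library, 0 in every CNC library, and 1 was above 0 in all libraries. *Cdh5*, *Tie1*, *Emcn*, *Cldn5* and *Vwf* were listed at 0 in every CNC library, but not all of these were above 0 in every SHF library. The smooth muscle sums overlapped, at 1463.1 to 3075.7 TPM in SHF and 1297.3 to 1999.3 TPM in CNC. SHF replicates 2 and 3 held *Xist* and no Y-linked transcript, while SHF replicate 1 and all CNC libraries held Y-linked transcripts, so sex was not balanced between the lineages. CNC replicate 2 had the highest leukocyte marker sum, 269.8 TPM against at most 34.5 TPM in the other libraries, and the highest Schwann cell marker sum, 103.0 TPM against at most 34.1 TPM. The cardiomyocyte sum was 118.6, 87.4 and 144.5 TPM in SHF and 92.1, 1.5 and 0 TPM in CNC. The part of these cells in the members' levels was not tested.

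Of the 8 members tested, 4 had levels that did not overlap between the lineages. *Igfbp4* and *Igfbp5* were higher in every CNC library, and *Igf1r* and *Igf2r* were higher in every SHF library. Over all 10185 genes tested the lineages did not overlap for 11.8%, with 6.11% higher in SHF and 5.68% higher in CNC. None of the 8 members passed an adjusted p of 0.05 in limma with Benjamini-Hochberg adjustment over all genes, and the share of all genes that passed was 0%. At an unadjusted p under 0.05, limma called 2 members, *Igfbp4* and *Igfbp5*, where it called 5.86% of all genes. The median difference of the 8 members was 0.24 on the log2(TPM + 1) scale, SHF minus CNC, beside 0.02 over all genes tested. With 3 libraries a lineage, the smallest p that exact permutation of the libraries (two-sided) allows for any gene is 0.1.

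The promoters of these 4 genes are shown because they are the members whose levels separated the lineages, 2 in each direction. Each line gives the 150 bases before the transcription start in RefSeq on GRCm38.p6, read 5′ to 3′ on the gene's strand. Capitals mark 4 motifs, each searched on both strands. The TATA box was searched as TATAAA. A related form of it was searched as TATTTAA. The GC box, which SP factors bind, was searched as GGGCGG. The E-box of basic helix-loop-helix factors was searched as CACGTG. No marked motif overlaps another in the windows shown. The motifs were picked after the sequences had been read.
Igfbp4: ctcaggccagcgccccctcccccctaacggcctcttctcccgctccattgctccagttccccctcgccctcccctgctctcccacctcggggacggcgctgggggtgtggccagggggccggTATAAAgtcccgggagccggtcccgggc
Igfbp5: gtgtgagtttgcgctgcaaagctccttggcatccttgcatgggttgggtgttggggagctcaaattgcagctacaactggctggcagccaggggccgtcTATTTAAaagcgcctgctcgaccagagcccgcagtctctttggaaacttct
Igf1r: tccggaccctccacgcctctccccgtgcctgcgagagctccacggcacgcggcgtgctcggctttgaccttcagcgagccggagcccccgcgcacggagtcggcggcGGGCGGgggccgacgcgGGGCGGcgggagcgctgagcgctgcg
Igf2r: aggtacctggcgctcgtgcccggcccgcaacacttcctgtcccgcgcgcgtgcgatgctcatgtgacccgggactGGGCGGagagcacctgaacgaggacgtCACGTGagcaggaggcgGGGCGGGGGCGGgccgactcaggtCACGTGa

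The *Igfbp4* window lies at chr11:99041094-99041243 on the plus strand and holds TATAAA with its first base 28 bases before the start. The *Igfbp5* window, chr1:72874866-72875015 on the minus strand, holds TATTTAA 51 bases before the start. TATAAA was found in 7.57% and TATTTAA in 2.23% of 32851 RefSeq promoter windows of the same length. Both receptor windows held GC boxes and no TATA-type motif. In *Igf1r*, chr7:67952107-67952256 on the plus strand, the GC boxes began 43 and 26 bases before the start. In *Igf2r*, chr17:12769707-12769856 on the minus strand, they began 75, 31 and 25 bases before it, the last 2 directly adjoining, and E-boxes began 48 and 7 bases before it. GGGCGG occurs in 28.6% and CACGTG in 4.3% of windows. The GC content was 73.3% for *Igfbp4*, 55.3% for *Igfbp5*, 78.7% for *Igf1r* and 70.7% for *Igf2r*, beside a median of 54.0%. These matches describe letters only, and the starts of *Igfbp5*, *Igf1r* and *Igf2r* differ between RefSeq and GENCODE.

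*Igf1* was the abundant ligand and was present in every library (*Igf1*, ENSMUSG00000020053.18, chr10:87858265-87937042, plus strand, GRCm38). It was measured at 363.06, 730.69 and 425.77 TPM in SHF replicates 1 to 3 and at 428.52, 116.11 and 453.36 TPM in CNC replicates 1 to 3. SHF replicate 2 was the highest and CNC replicate 2 the lowest, and of the other 4 libraries both SHF libraries lay just under both CNC libraries, against the sign of the difference in means. The means were 506.5 ± 196.7 TPM (SD, n = 3) in SHF and 332.7 ± 188.0 TPM (SD, n = 3) in CNC, and *Igf1* ranked 377 among all rows by mean TPM. The difference was 0.77 on the log2(TPM + 1) scale (SE 0.51, 95% interval -0.34 to 1.89, adjusted p = 0.876 in limma, exact permutation p = 0.6). Without CNC replicate 2 it was 0.13.

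*Igf2*, the ligand that is imprinted and falls after birth in most mouse tissues, was close to 0 in both lineages. Its TPM was 0.16, 3.58 and 0 in the SHF libraries and 0, 0 and 0.67 in the CNC libraries (*Igf2*, chr7:142650766-142666816, minus strand). *H19*, the untranslated RNA of the same imprinted cluster, was listed at 34.99 TPM in SHF replicate 3 and at 0 in the other 5 libraries. In each library with either RNA, only one of them was above 0. In GENCODE, 62.8% of the exon bases of *Igf2* are shared with the gene *Gm49394* on the same strand. *Gm49394* has no row in the matrix, so the matrix does not list the 2 genes apart.

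**Figure D1:**
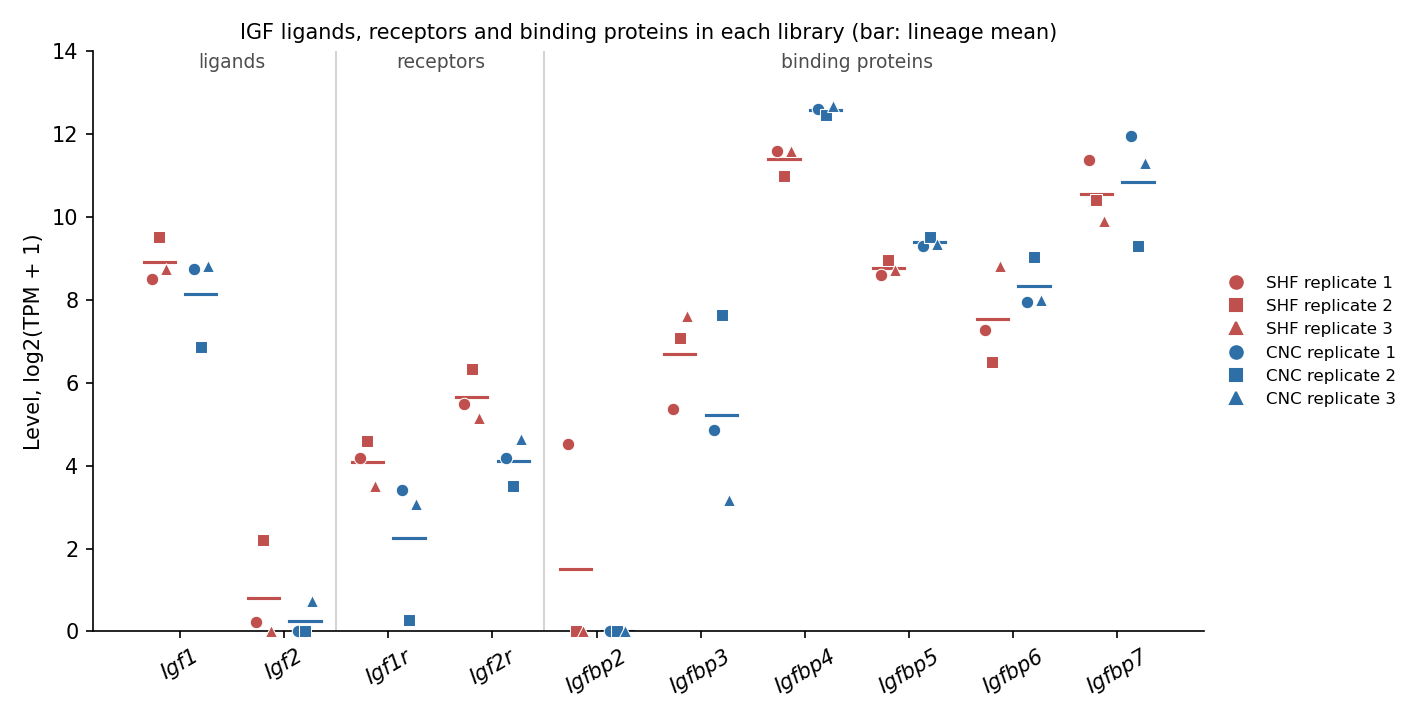
Level of each member in each library, on a log2(TPM + 1) axis, with SHF libraries in red, CNC libraries in blue and 1 marker shape per replicate number. Bars are the means of the 3 plotted values per lineage. *Igfbp4* and *Igfbp5* sit higher in all CNC libraries, *Igf1r* and *Igf2r* higher in all SHF libraries, and *Igf2* and *Igfbp2* lie at or near 0 in most libraries.

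*Igf1r*, the signalling receptor, was higher in SHF in each library, at low levels (*Igf1r*, ENSMUSG00000005533.10, chr7:67952827-68233668, plus strand). Its TPM was 17.06, 23.29 and 10.42 in SHF and 9.64, 0.2 and 7.4 in CNC. The gap between the lowest SHF library and the highest CNC library was small, and CNC replicate 2 stood far under the others. The SHF mean of 16.9 ± 6.44 TPM (SD, n = 3) was 2.94 times the CNC mean of 5.75 ± 4.93 TPM (SD, n = 3). On the log2(TPM + 1) scale the difference was 1.85 (SE 1.3, 95% interval -1.01 to 4.71, adjusted p = 0.884 in limma, exact permutation p = 0.1, the smallest this design allows). Without CNC replicate 2 it was 0.86, and under quantile normalization the lineages overlapped.

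*Igf2r*, the clearance receptor for IGF2, was also higher in every SHF library (*Igf2r*, ENSMUSG00000023830.14, chr17:12682406-12769664, minus strand). Its TPM was 44.17, 79.36 and 34.73 in SHF and 17.34, 10.42 and 24.05 in CNC. All SHF libraries exceeded all CNC libraries, with SHF replicate 2 highest and CNC replicate 2 lowest. The means were 52.8 ± 23.5 TPM in SHF and 17.3 ± 6.82 TPM in CNC (SD, n = 3 each), a ratio of 3.05. The log2(TPM + 1) difference was 1.54 (SE 0.74, 95% interval -0.08 to 3.17, unadjusted p = 0.0609 and adjusted p = 0.87 in limma, exact permutation p = 0.1), and it stayed between 1.21 and 1.81 over the alternatives. *Airn*, the antisense RNA that runs across *Igf2r* and silences it on the paternal chromosome, was at 31, 5.71 and 18.78 TPM in SHF and at 0, 39.76 and 0 TPM in CNC, and shares no annotated exon base with *Igf2r*.

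The receptors kept one order in all libraries, with *Igf2r* above *Igf1r* in 6 of 6. The ratio of *Igf2r* to *Igf1r* TPM was 2.59, 3.41 and 3.33 in SHF and 1.8, 52.1 and 3.25 in CNC, so apart from CNC replicate 2, where *Igf1r* was at 0.2 TPM, the balance of the receptors overlapped between the lineages. The ratio of *Igf1* to *Igf1r* TPM was 21.3, 31.4 and 40.9 in SHF and 44.5, 580.5 and 61.3 in CNC, higher in every CNC library. Cells of a type and RNA per cell cannot be told apart in bulk libraries, so a lower receptor level can stand for fewer cells with the receptor or for less RNA in each. The endothelial marker sum, which was also higher in SHF, was 89.5, 591.0 and 525.5 TPM in SHF replicates 1 to 3, where SHF replicate 2 had the highest endothelial sum and the highest *Igf1r* and *Igf2r* of all libraries, and SHF replicate 1 the smallest endothelial sum of its lineage and the middle level of both receptors. The part of endothelial cells in the receptor levels was not tested.

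**Figure D2:**
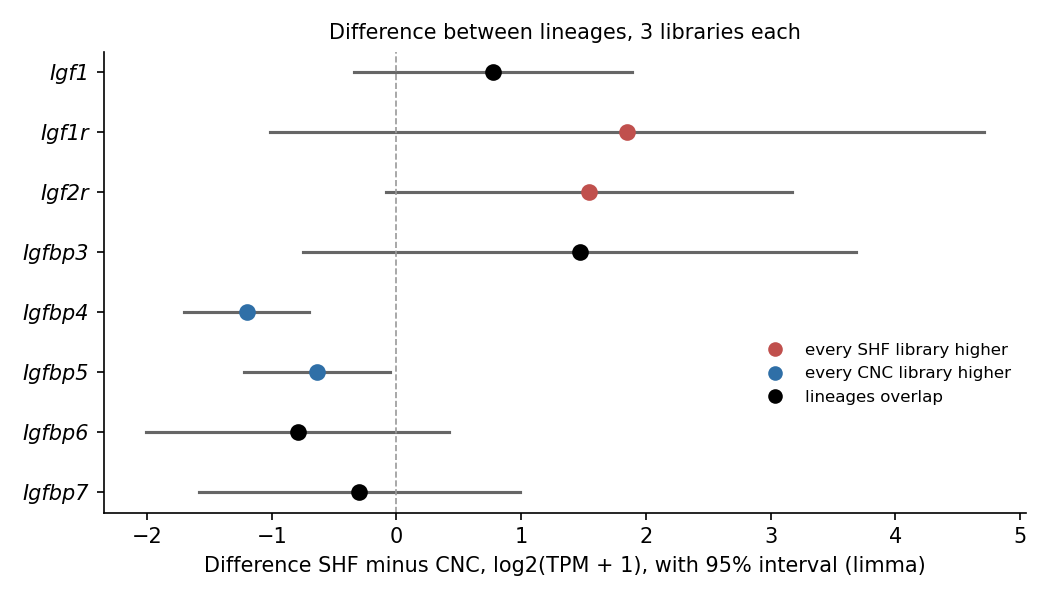
Difference SHF minus CNC of the 8 members tested, on the log2(TPM + 1) scale, with the 95% interval of the limma fit. Red points mark members higher in every SHF library, blue points members higher in every CNC library and black points members whose lineages overlap. Only the intervals of *Igfbp4* (-1.7 to -0.7) and *Igfbp5* (-1.22 to -0.05) lie on one side of 0.

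*Igfbp4* was the most abundant member in all 6 libraries and was higher in CNC. IGFBP4 binds both ligands and in most settings holds them away from the receptor until PAPP-A cuts it. Its TPM was 3101.22, 2042.73 and 3072.97 in the SHF libraries and 6302.55, 5685.55 and 6538.19 in the CNC libraries (*Igfbp4*, ENSMUSG00000017493.12, chr11:99041244-99054392, plus strand). The lowest CNC library was well above the highest SHF library, and the CNC libraries lay close together. The mean in CNC, 6175.4 ± 440.3 TPM (SD, n = 3), was 2.25 times that in SHF, 2739.0 ± 603.1 TPM (SD, n = 3). On the log2(TPM + 1) scale the difference was -1.2 (SE 0.23, 95% interval -1.7 to -0.7, unadjusted p = 0.000269 and adjusted p = 0.465 in limma, exact permutation p = 0.1). This SE rests on a variance drawn towards a trend over all genes, so it does not measure the spread of this gene taken alone. The difference did not pass adjustment over all genes. When the trend of variance with level was left out of the limma fit, its SE was 0.53 and its unadjusted p was 0.0597. *Igfbp4* ranked 19 among all rows by mean TPM, and between 13 and 61 in single libraries.

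*Igfbp5*, the most conserved binding protein, which binds the extracellular matrix and is cut by HTRA1, was also higher in CNC. Its TPM was 385.53, 500.7 and 419.96 in SHF and 633.57, 739.25 and 649.98 in CNC (*Igfbp5*, ENSMUSG00000026185.8, chr1:72857932-72874884, minus strand). The lineages did not overlap, and each was narrow. The means were 435.4 ± 59.1 TPM in SHF and 674.3 ± 56.9 TPM in CNC (SD, n = 3 each), a ratio of 1.55 for CNC over SHF. The difference of -0.64 on the log2(TPM + 1) scale (SE 0.26, 95% interval -1.22 to -0.05) had an unadjusted p of 0.0348 and an adjusted p of 0.812 in limma (exact permutation p = 0.1). The unadjusted p rose above 0.05 without any single library other than SHF replicate 2, reaching 0.0987 without CNC replicate 2, and it was 0.0644 under quantile normalization and 0.256 without the variance trend.

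Because the fibroblast marker sum was higher in every CNC library, the members were also set against it. *Igfbp4* amounted to 9.86%, 6.99% and 9.46% of the fibroblast marker sum in SHF and to 12.1%, 14.1% and 11.9% in CNC, still higher in every CNC library. *Igfbp5* amounted to 1.23%, 1.71% and 1.29% in SHF and to 1.21%, 1.84% and 1.19% in CNC, with a mean of 1.41% in each lineage. The separation of *Igfbp5* between the lineages was thus absent on this scale, while that of *Igfbp4* remained at a smaller size, 12.7% ± 1.22 against 8.77% ± 1.55 (SD, n = 3 each). *Igf1* was 1.15%, 2.5% and 1.31% in SHF and 0.82%, 0.288% and 0.827% in CNC, higher in every SHF library. Both receptors stayed higher in SHF, so 4 members did not overlap on this scale too, *Igfbp4* in the CNC direction and *Igf1*, *Igf1r* and *Igf2r* in the SHF direction. This scale tilts all genes towards SHF: 16.9% of the genes tested were higher in every SHF library and 1.84% in every CNC library. The scale was added after the data had been seen, and whether the share of fibroblasts sets the *Igfbp4* level was not tested.

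**Figure D3:**
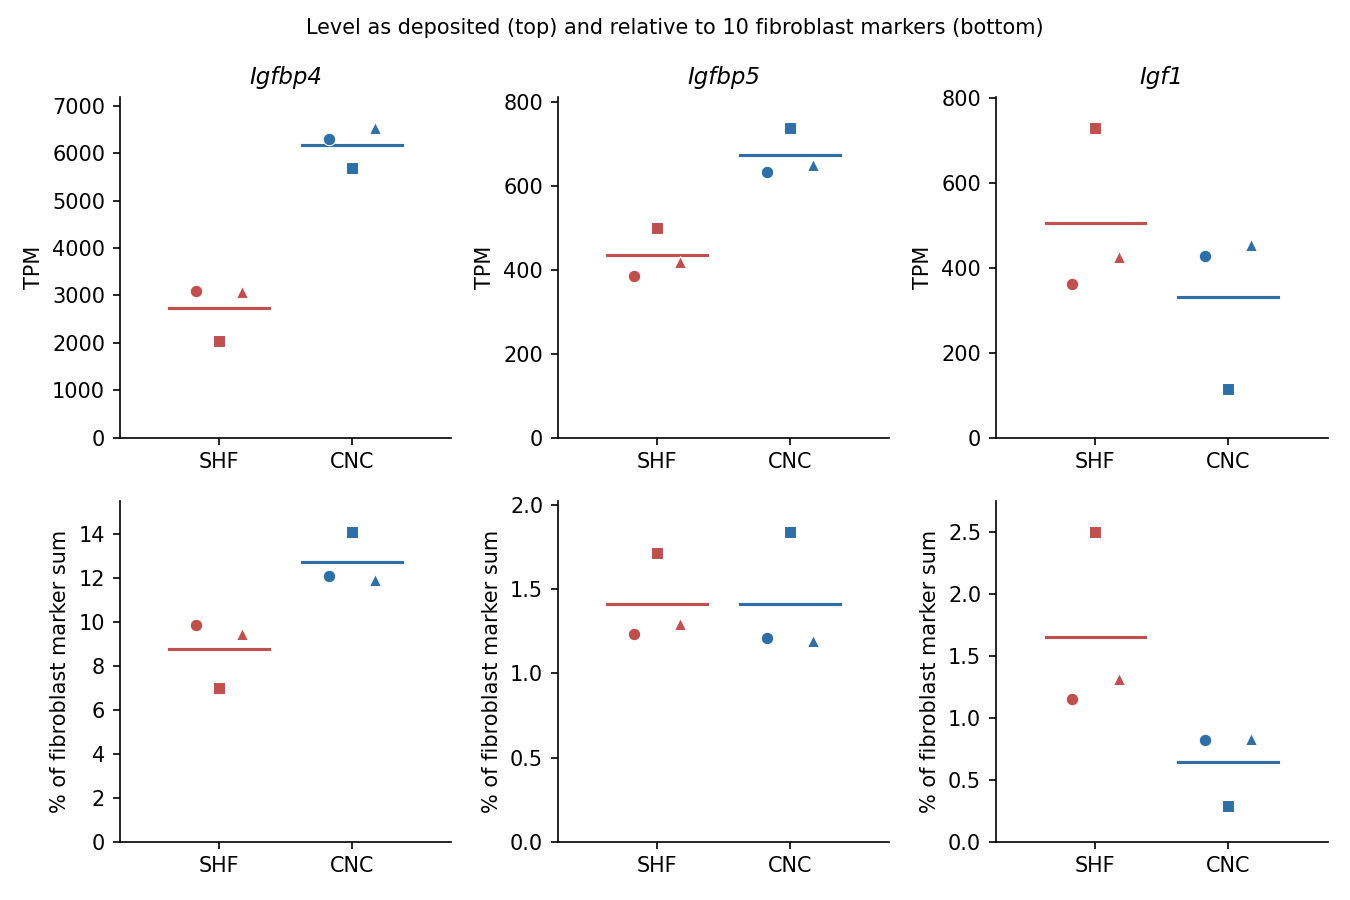
*Igfbp4*, *Igfbp5* and *Igf1* in each library as TPM (top row) and as a percent of the summed TPM of the 10 fibroblast markers (bottom row), each axis from 0, with SHF in red, CNC in blue, circles, squares and triangles for replicates 1, 2 and 3, and bars for the mean of 3 libraries. *Igfbp4* separates the lineages in both rows, *Igfbp5* only as TPM and *Igf1* only relative to the markers.

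The other binding proteins varied more within a lineage than between the lineages. *Igfbp7*, a low-affinity binding protein deposited in vessel walls, was the second most abundant member by mean, at 2670.02, 1354.9 and 956.38 TPM in SHF and 3962.88, 632.97 and 2552.72 TPM in CNC (*Igfbp7*, chr5:77349240-77408041, minus strand). CNC held both the highest and the lowest library. The means were 1660.4 ± 896.7 and 2382.9 ± 1671.4 TPM (SD, n = 3 each), and the log2(TPM + 1) difference was -0.3 (SE 0.59, 95% interval -1.58 to 0.99, adjusted p = 0.946 in limma). The sign of the *Igfbp7* difference changed to 0.25 without CNC replicate 1 and to 0.03 without SHF replicate 3. In GENCODE, 7.03% of its exon bases overlap *Polr2b* on the opposite strand.

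*Igfbp6*, which prefers IGF2, was at 153.64, 90.31 and 451.64 TPM in SHF and at 245.81, 523.26 and 256.72 TPM in CNC (*Igfbp6*, chr15:102144362-102149511, plus strand). SHF replicate 3 lay among the CNC libraries, and the other 2 SHF libraries lay under all of them. The log2(TPM + 1) difference was -0.79 (SE 0.55, 95% interval -2.01 to 0.42, adjusted p = 0.883 in limma). It was -1.44 without SHF replicate 3, where the lineages no longer overlapped, but -0.28 without SHF replicate 2 and -0.44 without CNC replicate 2. *Igfbp3*, the main carrier of IGFs in blood and also made by vessel wall cells, was at 40.33, 134.63 and 195.18 TPM in SHF and at 28.22, 196.66 and 7.98 TPM in CNC (*Igfbp3*, chr11:7206086-7213923, minus strand). Its highest CNC library was 24.6 times its lowest. The log2(TPM + 1) difference was 1.47 (SE 1.01, 95% interval -0.75 to 3.68, adjusted p = 0.883 in limma). It was 2.67 without CNC replicate 2, which held the highest *Igfbp3* of all 6 libraries, and 0.44 without CNC replicate 3, which held the lowest. *Igfbp2*, the neighbour of *Igfbp5* on chromosome 1 (chr1:72824503-72852474, plus strand), was at 22.15 TPM in SHF replicate 1 and listed at 0 in the other 5 libraries, so the 2 neighbours had very different levels.

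The summed TPM of the binding proteins was higher in every CNC library, and this separation depended on *Igfbp4*. Their summed level was 6372.9, 4123.3 and 5096.1 TPM in SHF and 11173.0, 7777.7 and 10005.6 TPM in CNC, or 0.52% ± 0.113 and 0.966% ± 0.174 of the library (SD, n = 3 each). Without *Igfbp4* the sum was 3271.7, 2080.5 and 2023.2 TPM in SHF and 4870.5, 2092.1 and 3467.4 TPM in CNC, and the lineages overlapped. The mean of the sum without *Igfbp4* was still higher in CNC, at 3476.7 TPM against 2458.5 TPM in SHF. As a percent of the fibroblast marker sum the total overlapped too, at 20.3%, 14.1% and 15.7% in SHF and 21.4%, 19.3% and 18.3% in CNC. *Igfbp4* made up 48.7%, 49.5% and 60.3% of the summed binding protein TPM in SHF and 56.4%, 73.1% and 65.3% in CNC. *Igfbp7* made up 41.9%, 32.9% and 18.8% in SHF and 35.5%, 8.14% and 25.5% in CNC. These 2 genes thus carried most binding protein message in every library, and their shares overlapped between the lineages. *Igfbp5* held 8.81% ± 3.09 of the sum in SHF and 7.22% ± 2.02 in CNC, *Igfbp6* 4.49% ± 3.79 and 3.83% ± 2.52, and *Igfbp3* 2.58% ± 1.71 and 0.954% ± 1.37 (SD, n = 3 each). The summed binding proteins exceeded *Igf1* by 17.6, 5.64 and 12.0 times in the SHF libraries and by 26.1, 67.0 and 22.1 times in the CNC libraries, again without overlap, with *Igf1* of CNC replicate 2 giving the highest value.

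**Figure D4:**
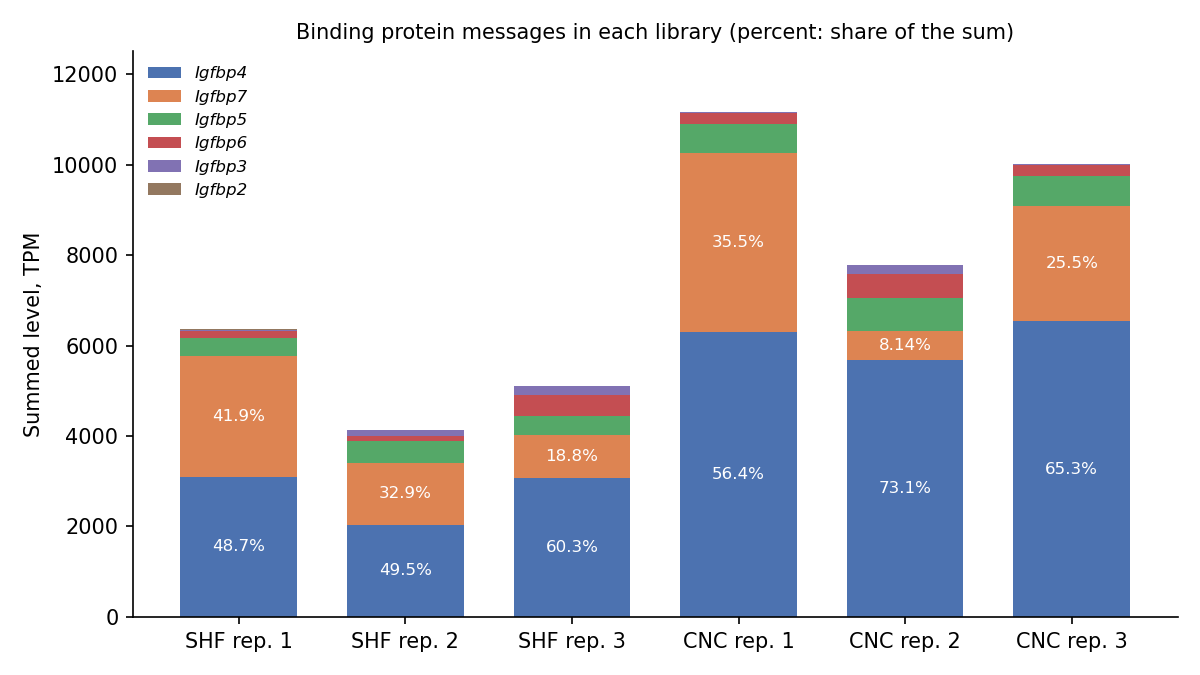
Summed TPM of the 6 binding proteins in each library, stacked by gene from a baseline of 0, with the percent of the sum printed for *Igfbp4* and *Igfbp7*. The CNC bars (7777.7 to 11173.0 TPM) are all taller than the SHF bars (4123.3 to 6372.9 TPM), and *Igfbp4* is the largest block of each.

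By mean TPM over the 6 libraries the members stood in the order *Igfbp4*, *Igfbp7*, *Igfbp5*, *Igf1*, *Igfbp6*, *Igfbp3*, *Igf2r*, *Igf1r*, *Igfbp2* and *Igf2*. Only the steps from *Igfbp4* to *Igfbp7* and from *Igf2r* to *Igf1r* held in all 6 libraries. *Igfbp7* was above *Igfbp5*, *Igfbp6* above *Igfbp3* and *Igf1r* above *Igfbp2* in 5 of 6, while the order of *Igfbp5* and *Igf1*, of *Igf1* and *Igfbp6* and of *Igfbp3* and *Igf2r* held in 4 of 6. *Igfbp2* exceeded *Igf2* in 1 library. The replicates numbered 2 stood at the ends for several members. CNC replicate 2 was the lowest library for *Igf1*, *Igf1r*, *Igf2r* and *Igfbp7* and the highest for *Igfbp3*, *Igfbp5* and *Igfbp6*. SHF replicate 2 was the highest for both ligands and both receptors and the lowest for *Igfbp4* and *Igfbp6*.

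Among the enzymes that cut IGF binding proteins, *Htra1* had the clearest difference, in the same direction as *Igfbp4* and *Igfbp5* (*Htra1*, ENSMUSG00000006205.13, chr7:130936111-130985660, plus strand). HTRA1 is a secreted serine protease. Its TPM was 311.46, 490.21 and 334.2 in SHF and 1172.9, 675.39 and 947.23 in CNC, so every CNC library was higher. The means were 378.6 ± 97.3 and 931.8 ± 249.1 TPM (SD, n = 3 each), and the log2(TPM + 1) difference was -1.29 (SE 0.31, 95% interval -1.97 to -0.61, unadjusted p = 0.00157, adjusted p = 0.475 in limma). Relative to the fibroblast marker sum, *Htra1* overlapped between the lineages at the boundary, with a highest SHF library of 1.68% and a lowest CNC library of 1.68%. Its relative *Htra3* was about as abundant, at 506.51, 345.95 and 933.14 TPM in SHF and 939.44, 757.04 and 474.72 TPM in CNC, and overlapped.

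*Pappa*, which encodes the IGFBP4 protease PAPP-A, was listed at 2.73, 0 and 5.93 TPM in SHF and at 1.07, 1.18 and 0 TPM in CNC. *Pappa2*, its relative that cuts IGFBP5, had a TPM of 0, 4.69 and 9.45 in SHF and of 0 in every CNC library. Both were thus far below their substrates in all libraries. *Stc2*, a stanniocalcin that inhibits PAPP-A, was at 40.95, 27.65 and 112.43 TPM in SHF and at 24.99, 13.61 and 24.94 TPM in CNC, higher in every SHF library, with a difference of 1.26 on the log2(TPM + 1) scale (SE 0.75, adjusted p = 0.874 in limma). *Stc2* was above *Pappa* in all 6 libraries.

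**Figure D5:**
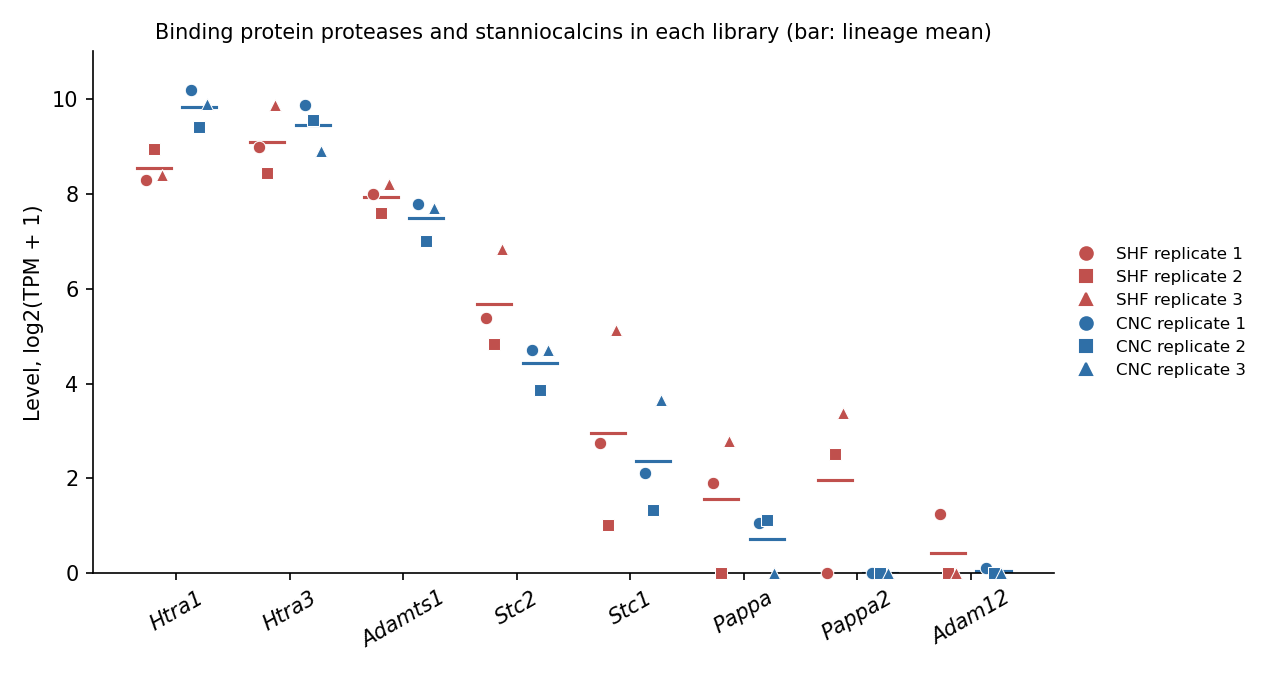
Levels of binding protein proteases and of the stanniocalcins *Stc1* and *Stc2* in each library, on a log2(TPM + 1) axis, with SHF in red, CNC in blue and bars for the mean of the 3 plotted values. *Htra1* is higher in every CNC library and *Stc2* in every SHF library, while *Pappa* and *Pappa2* reach at most 5.93 and 9.45 TPM, in SHF replicate 3.

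The wider pathway list held 37 genes, all present as rows, of which 26 passed the filter and 5 (*Igfbp1*, *Igfals*, *Ins2*, *Insrr* and *Igf2bp1*) were listed at 0 in every library. Of the 26 tested, 0 passed the adjusted threshold in limma. At an unadjusted p under 0.05 limma called 1 of the 26 (*Htra1*), beside 5.86% of all genes. The lineages did not overlap for 3 of the 26, *Htra1* in the CNC direction and *Stc2* and *Foxo4* in the SHF direction. *Foxo4*, one of the FoxO factors that AKT keeps out of the nucleus, was at 3.78, 23.49 and 5.59 TPM in SHF and 1.39, 2.71 and 2.36 TPM in CNC (log2(TPM + 1) difference 1.56, SE 1.22, adjusted p = 0.889 in limma). The share of 3 in 26 is near the 11.8% of all genes. The median difference of the 26 was 0.24, with 16 positive and 10 negative values.

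Downstream of the receptor, the most abundant kinase message was *Akt2*, at 140.88, 15.61 and 203.42 TPM in SHF and 163.33, 146.49 and 120.61 TPM in CNC. The most abundant adaptor was *Shc1*, at 101.52, 207.92 and 38.27 TPM in SHF and 109.16, 55.21 and 92.44 TPM in CNC, and the most abundant FoxO factor *Foxo3*, at 32.14, 39.81 and 79.73 TPM in SHF and 23.2, 44.25 and 28.51 TPM in CNC. All of these overlapped between the lineages. *Insr*, the insulin receptor and closest relative of *Igf1r*, was at 1.89, 4.49 and 3.97 TPM in SHF and 0.22, 3.9 and 3.69 TPM in CNC. *Igf2bp2*, an RNA-binding protein known for binding *Igf2* message, was at 5.63, 0.1 and 11.5 TPM in SHF and listed at 0 in all CNC libraries, and was not tested because it failed the filter.

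The genes whose levels over the 6 libraries were most like those of *Igfbp4*, by the root mean square distance of log2(TPM + 1) centred on each gene's mean, were *Itgbl1* (0.17), *Matn2* (0.18) and *Pdgfrl* (0.19), out of 7364 candidates averaging 10 TPM or more, whose median distance was 1.19. For *Igf1* they included *Rnft1* (0.18) and *E430025E21Rik* (0.22), beside a median of 1.25. *Itgbl1*, for example, was at 459.5, 301.22 and 540.58 TPM in SHF and 898.35, 685.29 and 1068.75 TPM in CNC. *Rnft1* was at 44.81, 74.06 and 40.68 TPM in SHF and 59.53, 13.21 and 54.82 TPM in CNC, with the same highest and lowest library as *Igf1*. Likeness over 6 libraries, searched among so many genes, is a description.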

How the data were processed

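GFP+ cells were sorted and their RNA was amplified by the SmartSeq2 protocol and fragmented with a Nextera XT kit. Per the labels, reads were processed with Bowtie2 and RSEM 1.2.25 on mm10, and the deposited unit is TPM, with each library as a column. Which gene annotation was used is not given in the sources used here. The protocol does not mark strand, so overlapping genes cannot be told apart by it. Of the rows, 27 carry dates as names.

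The SHF and CNC libraries were set against each other in a linear model of log2(TPM + 1) (limma 3.58.1 under R 4.3.3, lmFit and trended eBayes). It covered the 10185 genes that reached 1 TPM in 3 or more of the 6 libraries, with Benjamini-Hochberg adjustment over all of them and a threshold of 0.05. Differences on this scale understate those of low genes. The code of the fit was run on simulated data with shifts larger than the estimated difference of any member. That run does not show how the fit performs on differences of the members' size. Single genes also had exact two-sided permutation tests. The members and lists were chosen with earlier results of these data known. All members were named. Other pathway genes were named if past the threshold, not overlapping or most abundant in their sub-list. The 3 genes with levels most like the top ligand and the top binding protein were named as well. *Pappa*, *Pappa2*, *Airn* and the rest of those in the protease plot were named after their values were seen. One gene that the likeness rule names is not reported here. Positions and exon overlaps are from GENCODE M21 on GRCm38, the assembly called mm10, and promoters from RefSeq. Alternatives tried were a pseudocount of 0.1 or 5, looser and stricter filters, rescaling, quantile normalization, eBayes without a trend, a replicate block, libraries with Y-linked transcripts only, and each library left out in turn. Tables and plots used Python 3.11.15, pandas 2.3.3 and matplotlib 3.10.9.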

Additional observations from a re-analysis of the deposited data

How the results depend on the processing

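Over 120 refits of single members, 117 kept the direction of the difference and stayed above an adjusted p of 0.05. The 3 exceptions were all *Igfbp7*, whose log2 difference ran from -1.07 to 0.25 as each library was left out in turn and was 0.52 in the 4 libraries with Y-linked transcripts. That subset has 1 SHF library, assumed to vary like the CNC libraries, and its median over all genes was 0.26. The cause was not tested. The number of genes past the threshold rose from 0 to 1 with a pseudocount of 5, and 0 members passed under any alternative. Outside that subset, members with an unadjusted p under 0.05 in limma numbered between 1 and 3. The share of all genes called this way was lowest with no filter, 574 of 14179 genes with 3 members. It was highest without SHF replicate 1, 782 of 10185 genes with 1 member. *Igfbp4* ran from -1.3 to -0.99 and *Igfbp5* from -0.8 to -0.55, while *Igf1* ran from 0.13 to 1.11, *Igf1r* from 0.86 to 2.53 *Igfbp3* from 0.15 to 2.67 and *Igfbp6* from -1.44 to -0.28. Quantile normalization left 3 members without overlap, and 5 did not overlap without SHF replicate 3, without CNC replicate 2 or in the 4 libraries alone, each time including the 4 described. With fewer libraries more genes separate, 21.2%, 20.9% and 43.5% of all genes tested under these 3 settings against 11.8% with all libraries. With *Igfbp4* left out of the binding protein sum, by construction, *Igfbp7* held 64.7% of it in SHF and 61.7% in CNC, and *Igfbp5* 18.9% and 22.4%. Replicate numbers gave no pairing (correlations of deviations -0.011, -0.004 and -0.011), and with a replicate block 0 genes passed, the *Igfbp4* difference was -1.2 and the unadjusted p of *Igfbp5* was 0.0577. Depth is unknown from TPM, so values near 0 carry no detection limit, and 3 libraries a lineage limit the precision of each difference.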
